A study of Mus musculus with 12 samples.

Results

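BMAL1-ChIP-seq gave a peak in 2 or 3 of the 3 control libraries and in exactly 1 of the 3 senescent libraries at 443 regions of the mouse genome. These regions were selected on the peak calls themselves: joining all peaks of the 6 lists that shared at least 1 bp left 16818 regions, and 2.63% of them met the rule. The senescent call was made by senescent replicate 2 in 341 of the 443 regions, by senescent replicate 3 in 66 and by senescent replicate 1 in 36. Since the calls chose the regions, their number, their division over libraries and the strength of their peaks are given as a description, with no test.

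The cells were primary mouse adult fibroblasts (MAFs), wild-type cells grown from the ears of adult female C57BL/6 mice and kept at 3% O2. Control MAFs were sham irradiated, whereas senescent MAFs received 20 Gy of X-rays and were cultured further, and both groups were given 100 nM dexamethasone, a glucocorticoid that synchronizes the clocks of cultured cells, and were fixed 12 hours afterwards. Each group had 3 replicates, which are not described as separate animals or cultures, and each precipitated library had an input library, for which no peak list was used here. The lists hold no read depth and no expression values, so the fibroblast and senescent states could not be checked against markers. Of 24 clock genes, which include known targets of BMAL1, 14 were nearest to a region called in all 6 libraries, compared with 984 of all 21827 protein-coding genes (4.51%).

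BMAL1 pairs with CLOCK to bind the E-box CACGTG and drives genes such as the Per and Cry repressors, which feed back on it to make the daily cycle. AP-1, a dimer of FOS and JUN family proteins, binds TGACTCA or TGAGTCA and is a main organizer of enhancers in stressed and senescent fibroblasts, while RUNX factors, TEAD factors (the DNA-binding partners of YAP) and the promoter factors NF-Y and SP/KLF recognise other short motifs. A peak shows where chromatin was recovered with the antibody, and not how BMAL1 came to be there.

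The following sequences, read from RefSeq GRCm38 (mm10) on the plus strand, show the best-ranked regions that hold an E-box near their centre, with the E-box in capitals. The windows are at chr9:120662023-120662088, in intergenic sequence 90655 bp downstream of the start of Rpl14, chr6:125467456-125467521 in an intron of Cd9, chr16:55973540-55973605 upstream of Zbtb11, chr16:26211632-26211697 in intergenic sequence near P3h2, and chr8:36577265-36577330 in an intron of Dlc1. All 5 were called by senescent replicate 2.
Rpl14: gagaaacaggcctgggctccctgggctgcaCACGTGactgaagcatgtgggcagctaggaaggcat
Cd9: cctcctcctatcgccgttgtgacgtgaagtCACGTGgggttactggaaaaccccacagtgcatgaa
Zbtb11: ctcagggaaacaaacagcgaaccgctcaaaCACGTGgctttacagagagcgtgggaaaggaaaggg
P3h2: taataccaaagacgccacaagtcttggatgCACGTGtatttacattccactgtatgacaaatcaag
Dlc1: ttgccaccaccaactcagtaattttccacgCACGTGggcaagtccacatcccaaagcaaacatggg

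The best-ranked regions with an AP-1 motif are shown because the share of this motif was compared with that of the E-box, with TGACTCA or TGAGTCA in capitals. The windows are at chr16:55973482-55973548 upstream of Zbtb11, chr15:77036770-77036836 in an intron of Mb with Apol6 as the nearest start site, chr2:30441980-30442046 in an intron of Ptpa near its start, chr4:43040407-43040473 at the promoter of Fam214b, and chr16:92653983-92654049 in an intron of Runx1. The Zbtb11 region held both motifs.
Zbtb11: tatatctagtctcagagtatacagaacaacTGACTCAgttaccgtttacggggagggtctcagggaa
Apol6: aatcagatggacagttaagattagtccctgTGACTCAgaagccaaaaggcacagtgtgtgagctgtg
Ptpa: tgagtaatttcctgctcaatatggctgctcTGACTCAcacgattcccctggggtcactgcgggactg
Fam214b: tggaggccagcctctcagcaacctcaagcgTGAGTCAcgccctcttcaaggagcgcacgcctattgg
Runx1: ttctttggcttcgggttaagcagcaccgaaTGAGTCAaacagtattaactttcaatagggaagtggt

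The best-ranked regions with a RUNX motif, TGTGGTTA or TGTGGTTT on either strand and in capitals here, are shown next. The motif was at 6.32% of the regions, against 10.6% of regions called only in control cells. In distal sequence alone the shares were 8.97% and 11.3%, with overlapping 95% intervals. Without control replicate 3 the share was 11.8%. The windows are at chr3:90293106-90293173 upstream of Gatad2b, chr5:102629498-102629565 in an intron of Arhgap24, chr10:12931541-12931608 in intergenic sequence near Stx11, chr14:47374550-47374617 in an intron of Lgals3, and chr17:80772641-80772708 in intergenic sequence near Map4k3. In the Lgals3 window the AP-1 motif stands in lower case shortly before the RUNX motif.
Gatad2b: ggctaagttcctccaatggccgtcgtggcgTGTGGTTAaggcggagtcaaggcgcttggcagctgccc
Arhgap24: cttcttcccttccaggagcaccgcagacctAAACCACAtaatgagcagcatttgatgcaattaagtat
Stx11: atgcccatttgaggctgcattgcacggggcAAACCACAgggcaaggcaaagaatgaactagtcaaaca
Lgals3: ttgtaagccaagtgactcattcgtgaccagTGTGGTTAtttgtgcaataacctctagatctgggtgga
Map4k3: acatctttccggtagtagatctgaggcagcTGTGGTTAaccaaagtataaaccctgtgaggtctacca

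Promoter regions often held the CCAAT box of NF-Y or the GC box of SP/KLF factors, and windows of 200 bp around the peak centre are shown for 4 promoters with different motifs, with E-boxes, AP-1 motifs, NF-Y motifs (CCAATCA or CCAATCG or CCAATGA or CCAATGG) and GC boxes (GGGCGG) in capitals on either strand. Sp1 (chr15:102405971-102406170) held 3 GC boxes, Zbtb7a (chr10:81137370-81137569) an NF-Y motif and 2 GC boxes, Vim (chr2:13573535-13573734) 2 AP-1 motifs, and Sox9 (chr11:112781967-112782166) 2 NF-Y motifs around 1 AP-1 motif. These 4 windows were chosen after their values were seen.
Sp1: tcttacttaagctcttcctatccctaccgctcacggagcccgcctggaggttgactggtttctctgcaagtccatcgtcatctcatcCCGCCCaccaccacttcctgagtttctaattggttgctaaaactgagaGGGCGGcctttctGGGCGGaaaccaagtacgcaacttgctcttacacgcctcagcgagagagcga
Zbtb7a: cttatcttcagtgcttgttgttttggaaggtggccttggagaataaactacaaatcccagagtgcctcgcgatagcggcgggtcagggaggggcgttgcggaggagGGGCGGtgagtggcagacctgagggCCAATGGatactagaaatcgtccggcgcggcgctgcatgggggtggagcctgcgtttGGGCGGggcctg
Vim: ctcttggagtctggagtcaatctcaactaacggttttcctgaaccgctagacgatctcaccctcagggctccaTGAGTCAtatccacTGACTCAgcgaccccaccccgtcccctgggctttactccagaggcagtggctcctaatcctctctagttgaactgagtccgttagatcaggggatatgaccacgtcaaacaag
Sox9: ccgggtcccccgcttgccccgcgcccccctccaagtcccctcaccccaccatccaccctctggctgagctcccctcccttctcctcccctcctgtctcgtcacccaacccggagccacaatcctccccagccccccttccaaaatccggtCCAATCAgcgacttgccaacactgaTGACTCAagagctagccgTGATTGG

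The senescent calls were unevenly spread over the 3 libraries. Senescent replicate 2 made 77.0% of them (95% Wilson interval 72.8 to 80.7%), although its list of 9805 peaks was 51.4% of all senescent peaks. Senescent replicate 3 made 14.9% (11.9 to 18.5%) with 26.5% of the senescent peaks, and senescent replicate 1 made 8.13% (5.93 to 11.0%) with 22.1%. The senescent call at these regions was therefore mostly that of the longest senescent list, and its share of the regions was larger than its share of the peaks. These intervals, like all those given here, cover the counting of regions only, and regions are not replicates of a condition.

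The control calls leaned on 1 library as well. Control replicate 3, with 10601 peaks, called 437 of the 443 regions (98.6%), control replicate 2, with 3349 peaks, called 325 (73.4%), and control replicate 1, with 2794 peaks, called 244 (55.1%). All 3 control libraries called 120 regions (27.1%) and only 2 called the other 323, of which 317 included control replicate 3. The most frequent pattern was control replicates 2 and 3 with senescent replicate 2, at 159 regions, followed by control replicates 1 and 3 with senescent replicate 2, at 96. The longest list of each group, control replicate 3 and senescent replicate 2, met at 337 of the 443 regions (76.1%).

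**Figure D1:**
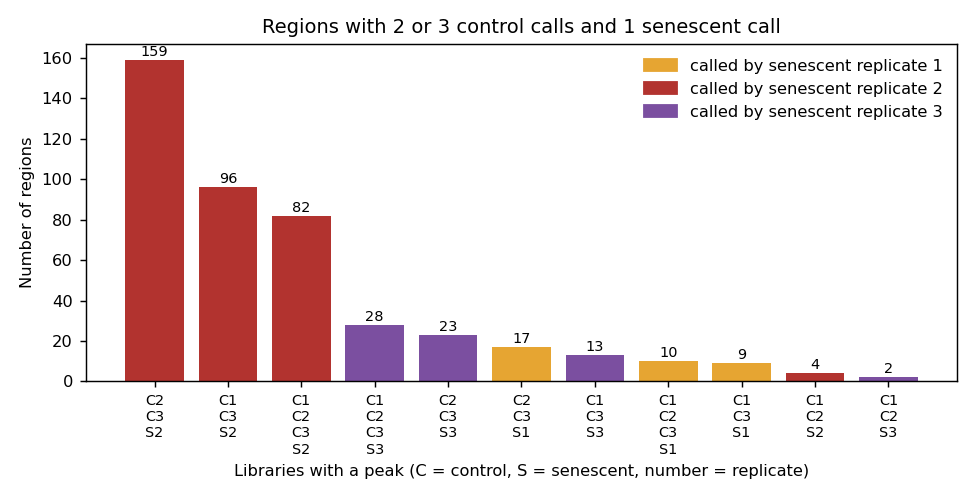
Number of regions (y axis) for each combination of calling libraries (x axis; C1 to C3 are control and S1 to S3 senescent replicates), with bars coloured by the senescent library that made the call. The 3 tallest bars, at 159, 96 and 82 regions, all have the call of senescent replicate 2.

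When a control library was left out, 2 control calls were still required, so both remaining control libraries had to call. This gave 119 regions without control replicate 3, 238 without control replicate 2 and 319 without control replicate 1. These numbers largely follow from the call patterns above, and 115 of the 119 regions overlapped the 443. With every list limited to its 2794 best-scored peaks, the length of the shortest list, 231 regions met the rule and only 43 of them overlapped the 443 regions. The senescent calls of those 231 regions were made by senescent replicate 1 at 92, by senescent replicate 2 at 77 (33.3%) and by senescent replicate 3 at 62, so the predominance of senescent replicate 2 was not present at equal list length. The mirror rule, 2 or 3 senescent calls and exactly 1 control call, was met by 1195 regions at full length and 383 at equal length.

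Joining peaks that shared at least 1 bp made the senescent peak of a region lie at or near its control peaks. The closeness given here is therefore a description of the joined peaks and no separate observation. The centre of the senescent peak was a median of 28.5 bp from the nearest control peak centre, and within 100 bp at 408 regions (92.1%). The senescent peak shared at least 50% of the shorter peak with a control peak at 428 regions and less at 15. At 38 regions (8.58%) it touched no peak of 1 of the calling control libraries and was joined to it through another peak. The regions had a median width of 352 bp, and 9 were wider than 1000 bp.

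The score of a peak in these lists is the −log10 of its q-value, and peaks were compared across libraries by their rank in their own list, as a percent of its length with the best score first. At 47 regions a library had more than 1 peak, and its best-ranked peak was used, so compared peaks may lie apart within a wide region. The peaks of these regions were of middle to low rank in all libraries but control replicate 3. The median rank was 61.9% in control replicate 1 (range 0.680 to 98.8%), 59.1% in control replicate 2 (0.478 to 99.8%) and 28.0% in control replicate 3 (0.0660 to 99.2%). The senescent peak had a median rank of 70.8% in the 36 calls of senescent replicate 1, 53.5% in the 341 calls of senescent replicate 2 and 69.0% in the 66 calls of senescent replicate 3. The senescent peak ranked below every control peak at 181 regions, above every control peak at 81 and between them at 181.

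**Figure D2:**
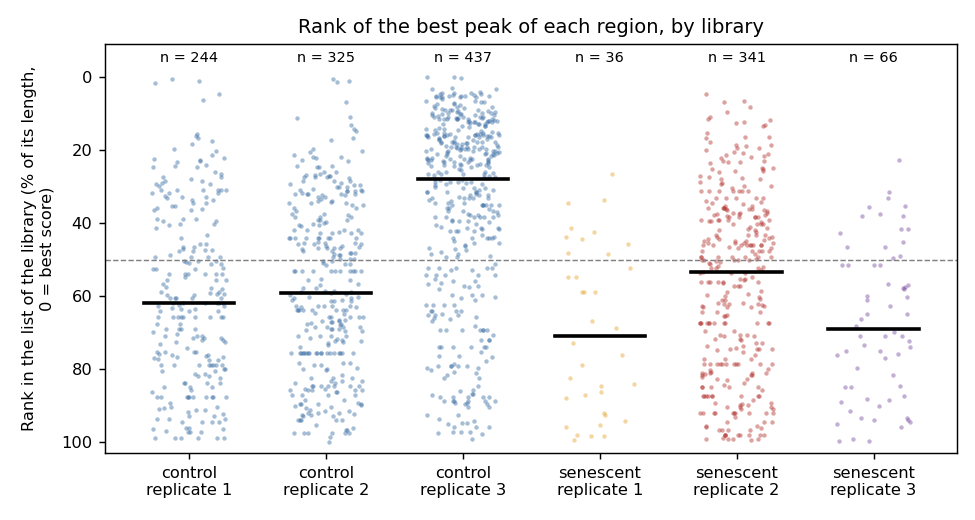
Rank of the best peak of each region in the library that called it (y axis, percent of the length of that list, with the best score at the top), for the 6 libraries (x axis); each point is a region and the black lines are medians. The median of control replicate 3 is at 28.0%, and the other 5 medians lie below the middle of their lists.

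The best-ranked peak of a region was that of control replicate 3 at 302 regions and that of senescent replicate 2 at 71. Peaks of control replicate 3 were also wider here than in its list as a whole, with a median of 297 bp against 211 bp, whereas those of senescent replicate 2 were narrower, with 165 bp against 187 bp. The lists end at a score just above 2, a false discovery rate of 1%. The lowest senescent scores inside the rule were 2.24 in senescent replicate 1, 2.28 in senescent replicate 2 and 2.30 in senescent replicate 3, and 21 of the 443 senescent calls scored under 3. Just outside the rule were 986 regions with no senescent call, 405 with 2 senescent calls and 1272 with 1 call in each group.

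The 2 senescent libraries without a call sometimes had a peak close by that did not overlap. At 64 regions (14.4%, 11.5 to 18%) such a peak lay within 1000 bp, against 89 of the 986 control-only regions (9.03%, 7.39 to 11.0%), which have 3 libraries that could give one. By library, senescent replicate 1 had a peak within 1000 bp at 9.09% of the 407 regions it did not call and at 3.04% of the control-only regions. Senescent replicate 3 had one at 10.9% of 377 regions against 3.75%, and senescent replicate 2 at 12.7% of 102 regions against 8.01%.

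The regions were nearer to start sites than control-only regions and had about the promoter share of all regions. A protein-coding start site lay within 1000 bp of the centre at 153 regions (34.5%, 30.3 to 39.1%), against 10.1% of control-only regions, 50.5% of regions with 2 or 3 senescent and 1 control call, 44.4% of regions called in all 6 libraries, 34.2% of senescent-only regions and 33.9% of all 16818 regions. The median distance to a start site was 6.22 kb, compared with 32.2 kb for control-only regions and 8.05 kb for all regions, and 92 regions (20.8%) were more than 50 kb away. The centres were intergenic at 238 regions, intronic at 172, in a UTR at 29 and in a coding exon at 3, and 1 region was mitochondrial.

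The promoter share differed with the number of control calls and with the libraries used. It was 42.7% (37.4 to 48.2%) of the 323 regions with 2 control calls and 12.5% (7.72 to 19.6%) of the 120 regions with 3. It was 37.8% where senescent replicate 2 made the call, 25% for senescent replicate 1 and 22.7% for senescent replicate 3. Without control replicate 3 the share was 14.3%, and without control replicate 2 it was 23.1%. The regions left without control replicate 3 were mostly those called by all 3 control libraries, so 14.3% largely repeats the 12.5%. The share rose to 41.6% without senescent replicate 2 and to 41.4% without senescent replicate 3. It was 35.1% without control replicate 1 and 36.2% without senescent replicate 1.

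Few of the regions carried the E-box. CACGTG lay within 100 bp of the centre at 47 regions (10.6%, 8.07 to 13.8%), against 3.84% of flanking windows of the same size 2000 bp away and 16.7% of all regions. The share was 8.01% in control-only regions, 29.1% in regions with 2 or 3 senescent and 1 control call, and 44.6% in regions called in all 6 libraries. At the 153 promoter regions it was 10.5%, against 49.1% at promoters called in all 6 libraries, and at the 290 distal regions it was 10.7%, against 41.0%. Leaving out single libraries moved the share between 7.21% (without control replicate 1) and 15.8% (without senescent replicate 2), and at equal list length, where other regions were chosen, it was 25.1%.

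At full list length the AP-1 motif was found at more of the regions than the E-box, and at equal list length at fewer, with 14.7% against 25.1%. TGACTCA or TGAGTCA lay within 100 bp of the centre at 76 regions (17.2%, 13.9 to 20.9%), with 3.16% in the flanks and 16.5% over all regions. Control-only regions had 14.6%, regions with 2 or 3 senescent and 1 control call 15.2%, regions called in all 6 libraries 10.3%, and senescent-only regions 22.9%. AP-1 motifs were mostly distal, at 23.1% (18.6 to 28.3%) of distal and 5.88% of promoter regions, compared with 22.4% of all distal regions. E-box and AP-1 occurred together at 9 regions, and 329 regions (74.3%) had neither.

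The RUNX motif was at 28 regions (6.32%, 4.41 to 8.98%), with 2.71% in the flanks, against 10.6% (8.87 to 12.7%) of control-only regions, 2.62% of regions called in all 6 libraries and 4.57% of all regions. In distal sequence alone it was at 8.97% of these regions, 11.3% of control-only regions and 6.28% of all regions. Without control replicate 3 the share was 11.8%. The TEAD motif, AGAATGC or AGAATGT or GGAATGC or GGAATGT, was at 19.4% of the regions and 11.4% of flanks. In distal sequence it was at 26.2% of these regions, 24.5% of control-only regions and 21.2% of all regions. Distal regions with 2 or 3 control and 2 senescent calls had it at 29.9%.

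At promoters the frequent motifs were those of NF-Y and SP/KLF. NF-Y motifs were within 100 bp of the centre at 39.2% (31.8 to 47.1%) of the 153 promoter regions, against 24.2% of all promoter regions, 26.3% of promoters called in all 6 libraries and 39.0% of control-only promoters. GC boxes were at 53.6% of them, close to the 52.4% of all promoter regions and against 26.0% of control-only promoters. Both motifs were present at 23.5%, against 14.6% of all promoter regions. The CRE motif TGACGTCA was at 5.23% of the 153 promoter regions, against 2.79% of all promoter regions. Promoter regions with 2 or 3 control and 2 senescent calls had it at 6.08%. The ETS motif CCGGAAGT was at 5.88%, close to the 5.63% of all promoter regions.

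**Figure D3:**
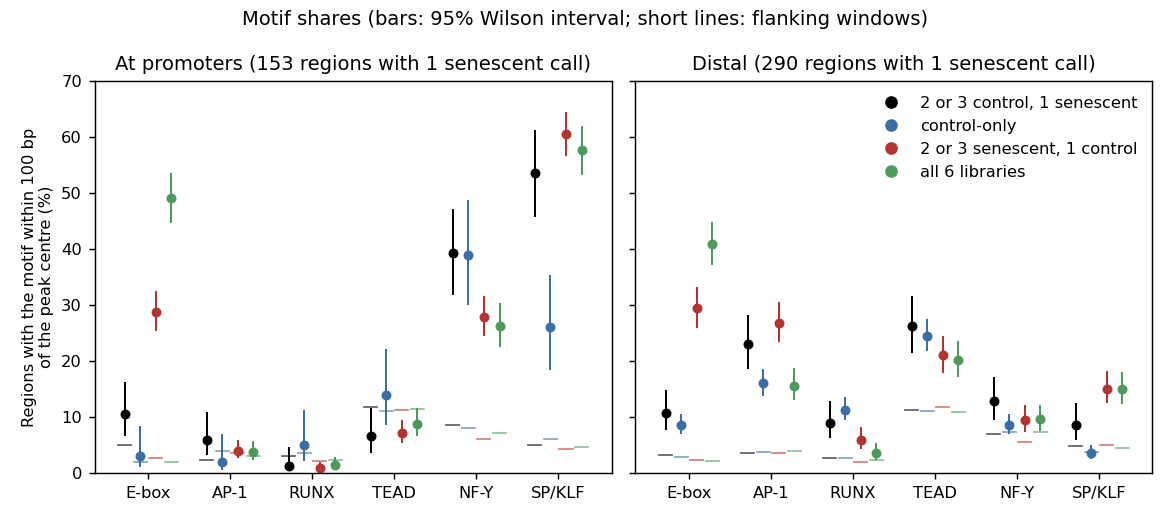
Percent of regions with each motif within 100 bp of the centre (y axis) at promoters (left) and in distal sequence (right), for the regions with 2 or 3 control and 1 senescent call (black) and 3 other sets; points are shares, bars 95% Wilson intervals and short lines the flanking windows. At promoters the black point for E-box is at 10.5% and that for NF-Y at 39.2%.

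The same held for the E-box within each library's own peaks. In control replicate 1, 15.6% of the peaks in these regions held CACGTG, against 32.3% of its other peaks, and in control replicate 2 the shares were 8.57% and 25.7%. Control replicate 3 had 10.6% and 13.7%, the smallest gap of the 6. In senescent replicate 2 the shares were 11.3% and 23.7%, in senescent replicate 3 10.6% and 33.6%, and in senescent replicate 1, with 36 peaks in these regions, 25% and 40.1%. The 95% intervals of the compared shares overlapped in control replicate 3 and senescent replicate 1. The share was thus lower in the peaks of these regions in each of the 6 libraries, among peaks that also ranked in the lower part of 5 of the lists, and the part of rank in this difference was not tested.

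**Figure D4:**
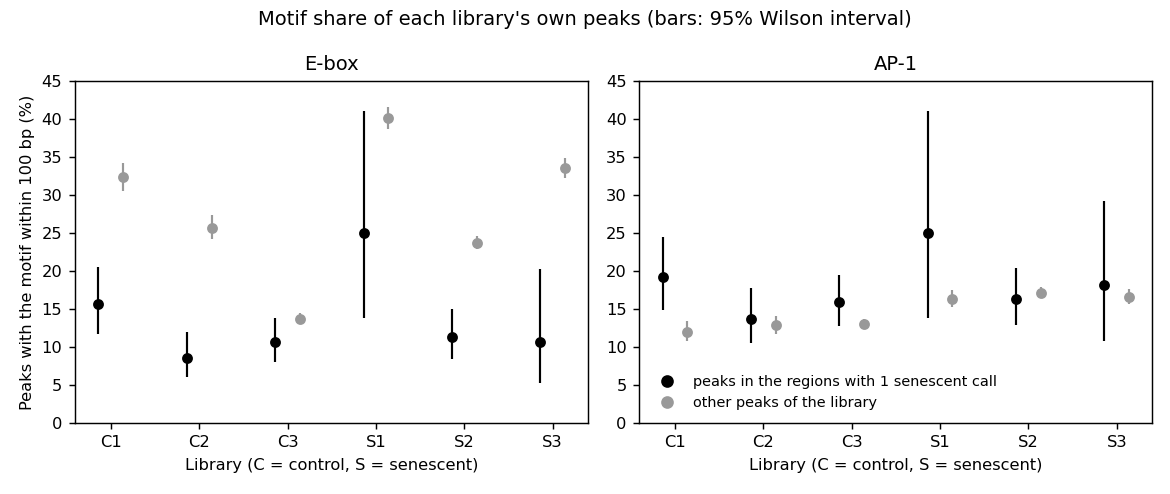
Percent of peaks with an E-box (left) or AP-1 motif (right) within 100 bp of their own centre (y axis) in each library (x axis), for peaks in the regions with 1 senescent call (black) and all other peaks of that library (grey); bars are 95% Wilson intervals. The black E-box points lie under the grey ones in all 6 libraries, from 10.6% against 13.7% in control replicate 3 to 10.6% against 33.6% in senescent replicate 3.

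The 3 best-ranked regions carried mitochondrial sequence. One was the mitochondrial genome itself (chrM:10939-15763), ranked 19, 16 and 7 in control replicates 1, 2 and 3 and 665 in senescent replicate 2. The others, chr1:24612646-24612858 and chr1:24613006-24613236, are nuclear copies of it, 99.5% and 99.6% identical to the mitochondrial genome over their whole length. The first nuclear copy ranked 33, 36 and 14 in the control libraries and 452 in senescent replicate 2, and the other ranked 45, 51 and 19 in the control libraries and 803 in senescent replicate 2. Reads of such near-identical copies cannot be told apart with certainty, and leaving out the mitochondrial genome left 442 regions.

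The next best-ranked regions were mostly intronic or intergenic and were called in all 3 control libraries. The region 90655 bp from Rpl14, which codes for a ribosomal protein, was at 24.5%, 14.9% and 10.2% in control replicates 1, 2 and 3 and at 20.7% in senescent replicate 2. The Cd9 region, in an intron of this tetraspanin gene, was at 21.5%, 21.4% and 2.94% in the control libraries and 36.1% in senescent replicate 2. Both held an E-box, and the senescent peak was of like rank in the first and of lower rank than all control peaks in the second. An intron of Erg, an ETS family gene (chr16:95573078-95573838), ranked at 4.78%, 13.3% and 5.54% in the control libraries but at 58.7% in senescent replicate 1. Introns of Ppm1h, a protein phosphatase gene, and of Tcf7l2, the Wnt pathway factor, ranked at 31.2% and 29.1% in senescent replicate 2. The Tcf7l2 region was at 32.7%, 20.3% and 9.58% in the control libraries.

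The best-ranked promoter regions were called by only 2 control libraries each. The promoter of Sp1, a factor that binds GC boxes, had its region 262 bp upstream of the start (chr15:102405613-102406288), and its peaks ranked at 21.9% in control replicate 2, 10.5% in control replicate 3 and 35.8% in senescent replicate 2. The Zbtb11 region, 298 bp upstream of this zinc finger gene, ranked at 33.7% in control replicate 1, 18% in control replicate 3 and 19.4% in senescent replicate 2. Its senescent score of 13.5 was above both control scores, 8.48 and 12.1, but by rank the senescent peak lay between the 2 control peaks. Depth is unknown, so the ranks are used for the comparison. The promoters of Oaz1, an inhibitor of polyamine synthesis, Zbtb7a, a transcriptional repressor, Ptpa, an activator of phosphatase PP2A, Fam214b, Mindy2, a deubiquitinase, and Adnp2 made up the other 6 of the best 8. Senescent replicate 2 made the call at each of these 8 promoters. Its rank percent was between those of the control libraries or better than both at Zbtb11, Oaz1, Fam214b, Adnp2, Ptpa and Zbtb7a, and worse than both at Sp1 and Mindy2.

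Where the other senescent libraries made the call, the best-ranked regions were distal apart from Hax1. Senescent replicate 3 called an intron of Lmo7 (chr14:101784375-101785007), ranked at 27.3%, 30.1% and 4.31% in the control libraries and 35.4% in senescent replicate 3. It also called the promoter of Hax1, an apoptosis regulator, 45 bp upstream of the start, at 22.3% in control replicate 2, 8.35% in control replicate 3 and 57.1% in senescent replicate 3, and a region 262833 bp from Mc2r. Senescent replicate 1 called, after Erg, a region near Wdr75 at 44.4% and one near Nln at 95.8%. The Nln region ranked at 6.37%, 10.9% and 12.0% in the control libraries, so its senescent peak was close to the end of its list.

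The regions were nearest to 417 of 21827 protein-coding genes (1.91%), and 18 genes had more than 1. Of 210 listed clock, AP-1, matrix, cytoskeletal and senescence genes, 17 (8.10%) were nearest to a region. Of the 169 listed genes that had any of the 16818 regions 10.1% were among them, compared with 5.32% of the 7840 genes that had any region. The listed genes can carry many regions, for example 30 at Fn1, and no test was made of these shares.

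None of the 24 clock genes was nearest to one of the 443 regions. Over all protein-coding genes 1.91% were nearest to one, and 3.61% were nearest to a control-only region. At such shares a short list can hold none, so an absence here is not read as a result. Of 12 further genes named in the study (Kdm6b, Smad3, Nr5a2, Gdnf, Lif, Sall1, Runx2, Bmpr1b, Col2a1, Col9a1, Col11a1 and Hmx1) none was, against 4 near control-only regions. The study named these genes from this same BMAL1-ChIP-seq, some of them for less binding in senescent cells. The 4 near control-only regions are therefore no separate support. None of 12 glucocorticoid-induced genes was nearest to one of the 443 regions. Of 15 AP-1 family genes 1 (6.67%), Fosb, had a region, 8376 bp downstream of its start. It was at 35.1% in control replicate 2, 19.6% in control replicate 3 and 37.2% in senescent replicate 2. Of 33 TGF-β and BMP genes 1 (3.03%) had a region, Tgfbr2, the type II receptor. Of 16 TEAD and YAP genes 1 (6.25%) had a region, Ccn1, a matricellular protein gene. The Ccn1 region lay 35369 bp upstream of the start and ranked at 91.4% in control replicate 2, 36.9% in control replicate 3 and 67.4% in senescent replicate 2, while 3 regions closer to the gene were called in all 6 libraries.

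Among 17 listed fibroblast identity genes only Vim (5.88%) had a region, and 2 (11.8%) were nearest to a control-only region. These shares were 1.91% and 3.61% over all protein-coding genes, and no test was made of them. Vim codes for vimentin, the intermediate filament protein of fibroblasts, and was the gene with the most of these regions, 6 of the 15 nearest to it. Senescent replicate 2 called 5 of the 6 and senescent replicate 1 called the sixth, and senescent replicate 3 called none. The regions were centred 1549 and 317 bp upstream of the nearest start site and 1639, 1984, 3325 and 10458 bp downstream of it. The region with the best ranks, chr2:13576541-13579020 in the gene body, was at 25.9%, 29.6% and 9.83% in control replicates 1, 2 and 3 and at 39.6% in senescent replicate 2. These best peaks did not all lie at the same site of this wide region. From the annotated start, that of control replicate 2 lay at 2614 to 2944 bp and that of control replicate 3 at 2735 to 4624 bp. The best peak of senescent replicate 2 lay at 4763 to 5033 bp and overlapped neither. The promoter region, chr2:13573492-13573737, held the 2 AP-1 motifs printed above and ranked at 67.1% in control replicate 2, 24.8% in control replicate 3 and 47.7% in senescent replicate 2.

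Over the 15 regions near Vim the 6 libraries had 6, 17 and 16 peaks in control replicates 1, 2 and 3 and 3, 9 and 2 peaks in senescent replicates 1, 2 and 3. Per 1000 peaks of each list, this was 2.15, 5.08 and 1.51 in the control libraries and 0.711, 0.918 and 0.396 in the senescent libraries. The rule asks for more control than senescent calls, and Vim was chosen for its number of such regions. Higher control values are therefore partly built in, and the values are a description with no test. The region 9592 bp downstream of the start was called in all 6 libraries.

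**Figure D5:**
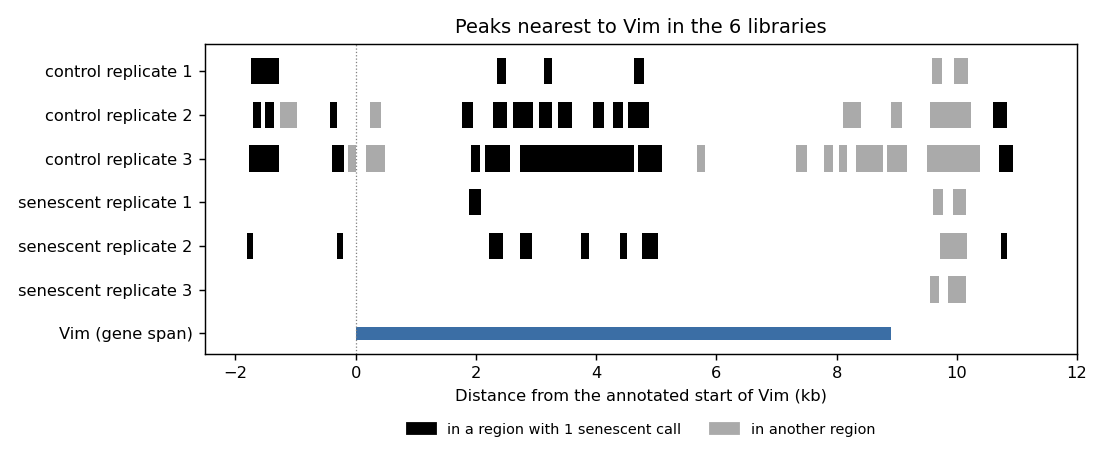
Peaks nearest to Vim in each library (rows), drawn to scale by distance from the annotated gene start (x axis, kb), with peaks in regions with 1 senescent call in black, peaks in other regions in grey and the gene span in blue. The black peaks of senescent replicate 2 lie within or beside control peaks, and all 6 libraries have grey peaks near 10 kb.

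Of 26 matrix genes, 4 (15.4%) had a region and 8 (30.8%) were nearest to a control-only region. Over all protein-coding genes these shares were 1.91% and 3.61%, but listed genes can carry many regions and no test was made. Fn1, the fibronectin gene, had 2 intronic regions: chr1:71646239-71648003, at 38.7%, 33.0% and 15.4% in the control libraries and 88.4% in senescent replicate 3, and chr1:71651122-71651915, at 90.2% in control replicate 1, 34.4% in control replicate 3 and 87.2% in senescent replicate 2. Lox, the lysyl oxidase that cross-links collagen, also had 2, and the one inside the gene was at 51.3%, 53.2% and 9.83% in the control libraries and 46.6% in senescent replicate 2. Its relative Loxl1 had 1 region, called by senescent replicate 3. Col3a1, a fibrillar collagen gene, had 1 intronic region (chr1:45313866-45314490) at 72.2% in control replicate 2, 24.1% in control replicate 3 and 72.8% in senescent replicate 1. All of these senescent peaks except that of Lox inside the gene ranked at 59.9% or lower in their lists.

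Of 20 RUNX and chondrogenic genes, 4 (20%) had a region and 9 (45%) were nearest to a control-only region. Over all protein-coding genes these shares were 1.91% and 3.61%, with the same limits. Runx1, the RUNX family factor, had an intronic region with an AP-1 motif (chr16:92653884-92654299), at 18.4%, 23.0% and 3.32% in the control libraries and 67.4% in senescent replicate 2. Sox9, the master regulator of cartilage, had its region 157 bp upstream of the start, at 84.6% in control replicate 2, 31.6% in control replicate 3 and 96.5% in senescent replicate 2, with a senescent score of 3.03. Sox6, another cartilage factor, had a region 484113 bp from its start, and Col9a3, a cartilage collagen gene, an intronic region called by senescent replicate 1 at 54.7%. At Runx1 and Sox9 the senescent peak thus ranked far lower than the peak of control replicate 3.

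Of 20 actin and focal adhesion genes, Tpm1 (tropomyosin), Actn4 (an actinin) and Lpp (a focal adhesion protein) had 1 region each. This was 15% of the list, while 35% were near control-only regions and 40% near regions with 2 or 3 senescent and 1 control call. Over all protein-coding genes these shares were 1.91%, 3.61% and 5.05%, with the same limits. The Tpm1 peak of senescent replicate 2 was at 98.0% of its list and that of Actn4 at 85.0%, whereas that of Lpp was at 29.9%. Of 22 senescence and p53 genes, 2 (9.09%) had a region, against the same 1.91% of all protein-coding genes. Gadd45a, a growth arrest gene, had a distal region with an E-box called by senescent replicate 3, 65624 bp upstream of the start. Hmga2, a chromatin protein of senescent cells, had an intronic region. The Gadd45a peaks were at 59.3% in control replicate 1, 20.2% in control replicate 3 and 37.5% in senescent replicate 3, and those of Hmga2 at 76.5%, 63.8% and 11.5% in the control libraries and 38.4% in senescent replicate 2.

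Other genes than Vim with 3 or more of the regions were Ppm1h with 4 and Rpl14 with 3. The 4 Ppm1h regions were within or at the start of the gene, and 2 were called by senescent replicate 2 and 2 by senescent replicate 3. The region 35 bp upstream of a Ppm1h start held an E-box and was at 55.5% in control replicate 1, 29.1% in control replicate 3 and 94.4% in senescent replicate 3. The Rpl14 regions lay 90655, 119717 and 168105 bp downstream of its start, were all called in the 3 control libraries and senescent replicate 2, and the senescent peak was at 20.7%, 98.0% and 73.5% respectively.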

How the data were processed

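Chromatin from control and senescent MAFs was fixed for 10 min in 1% formaldehyde, and the deposited peak lists of the 6 BMAL1 libraries were used. Per the methods, the authors mapped reads to mm10 using BWA, dropped pairs of which neither end mapped uniquely, removed PCR duplicates by Picard, and called peaks with Model-Based Analysis of ChIP-Seq; the names of the deposited lists, 1 for each library, give MACS2. The deposited score was read as −log10 of the q-value, since every list ends just above 2 (false discovery rate 1%). Depth is unknown, and the label and the methods name different suppliers of the antibody.

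Peaks (35822) were merged at an overlap of 1 bp or more. The centre of a region was that of its best-ranked peak. Start sites came from protein-coding transcripts of GENCODE M21 and sequence from RefSeq GRCm38, with promoters within 1000 bp. Exact matches to 16 motifs were counted on both strands in 200 bp windows and in windows 2000 bp to each side. Beside those spelled out in the report these were CACGTT and CAGCTG, SOX (ACAAAGG or ACAATGG), C/EBP (TTACNNAAC or TTACNNAAT or TTGCNNAAC or TTGCNNAAT), rearranged controls (ACCGGT and GTACTAC or GTAGTAC), and the CTCF and glucocorticoid receptor motifs. Identity to the mitochondrial genome was taken from blastn 2.17.0. Shares have 95% Wilson intervals. Code was tested on simulated peaks (Python 3.11.15, pysam 0.24.0, samtools 1.23.1).

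Regions were named by rule: the 10 of best mean rank percent, the best 3 of each senescent library, the best 5 with an E-box, AP-1 or RUNX motif, the best 8 promoters, all near listed genes, and genes with 3 or more. Members and lists were chosen with earlier results of these data known.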

Additional observations from a re-analysis of the deposited data

How the results depend on the processing

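Of 43 values recomputed under another choice with all libraries kept, 26 stayed within the spread of the original value. Limiting peaks to scores at or above the median of each list gave 200 regions, E-box and AP-1 shares of 19.5% and 18.5%, and a RUNX share of 4%. Equal peak numbers gave 231 regions, a share of senescent replicate 2 of 33.3%, E-box and AP-1 shares of 25.1% and 14.7%, and a RUNX share of 3.90%. Under both of these settings the E-box was the more frequent of the pair. Requiring all 3 control libraries gave 120 regions, a share of senescent replicate 2 of 68.3% and a promoter share of 12.5%. With motifs counted within 50 bp the E-box, AP-1 and RUNX shares were 6.32%, 9.71% and 3.39%, and anywhere in the region 16.9%, 23.5% and 9.71%. A promoter distance of 3000 bp gave 44.2%.

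Leaving out 1 library at a time gave between 119 regions (without control replicate 3) and 623 (without senescent replicate 3). With a control library left out, both remaining control libraries had to call. The share of senescent replicate 2 was then between 69.7% and 75.5%. The E-box share lay between 7.21% and 15.8%, the AP-1 share between 16.0% and 18.5%, the RUNX share between 4.41% and 11.8%, and the promoter share between 14.3% and 41.6%. No paired analysis was possible because these results come from no test.

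Read depth is unknown, so a missing senescent call cannot be told apart from a peak under the calling threshold. The regions are those of this threshold and of these list lengths.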
